A study of Mus musculus with 2 samples.

Results

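The Ifitm genes encode small interferon-induced transmembrane proteins, and 4 of them are described here, Ifitm1, Ifitm2, Ifitm3 and Ifitm6. They were taken by gene symbol from the 31253 genes counted in each library, so no measured value chose them. The gene list holds 7 Ifitm symbols. Of the others, Ifitm5, a bone-forming cell gene, had 23 UMIs in each library, Ifitm10 had 124 and 132 UMIs in the libraries labelled Lcn2-ko and wt, and Ifitm7 had 0 in both.

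The cells were live and CD45+, sorted from tumours grown from MB49, a bladder cancer line of the mouse, as 2 libraries, 1 labelled Lcn2-ko and 1 labelled wt. Both came from chimeric mice, that is lethally irradiated female hosts rebuilt with male bone marrow, which lacked Lcn2 for the library labelled Lcn2-ko and was wild type for the wt library. Marrow exchange changes blood-derived cells only, so the labels liken it to a deletion in myeloid cells. The labels give neither the age nor the number of mice per library. Lcn2, the gene removed, encodes a siderophore-binding protein stored in neutrophil granules, and the question stated for the series was its importance to the diversity and function of neutrophils.

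Ifitm proteins sit in the plasma membrane and in endosomes, where they make membranes stiffer and hinder the fusion of enveloped viruses with the cell. Ifitm3 acts mainly in late endosomes and lysosomes, Ifitm1 mainly at the cell surface, and Ifitm2 in endosomes alongside Ifitm3. Ifitm6 is a mouse gene whose role is less studied. The genes are induced by type I interferons and by interferon gamma, through the promoter elements called ISRE and GAS, and in immune cells they also show a steady level that does not need infection.

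The 4 genes lie within 63088 bases of chromosome 7 in the mm10 build. Ifitm2 (ENSMUSG00000060591) is at chr7:140954837-140955987 on the minus strand, and Ifitm1 (ENSMUSG00000025491) at chr7:140967221-140969825 on the plus strand. Ifitm3 (ENSMUSG00000025492) is at chr7:141009586-141010770 and Ifitm6 (ENSMUSG00000059108) at chr7:141015699-141017924, both on the minus strand. The promoters are shown because they differ in the interferon elements they hold, while the levels of the genes differed between classes. Each line runs 5′ to 3′ from 250 bases before to 50 after the start that RefSeq gives (GRCm38.p6), and capitals mark each match to the ISRE letters GAAANNGAAA, which were also searched as TTTCNNTTTC for the other strand. The windows span chr7:140967826-140968125 (Ifitm1), chr7:140955912-140956211 (Ifitm2), chr7:141010695-141010994 (Ifitm3) and chr7:141016843-141017142 (Ifitm6), each on the strand of its gene.
Ifitm1: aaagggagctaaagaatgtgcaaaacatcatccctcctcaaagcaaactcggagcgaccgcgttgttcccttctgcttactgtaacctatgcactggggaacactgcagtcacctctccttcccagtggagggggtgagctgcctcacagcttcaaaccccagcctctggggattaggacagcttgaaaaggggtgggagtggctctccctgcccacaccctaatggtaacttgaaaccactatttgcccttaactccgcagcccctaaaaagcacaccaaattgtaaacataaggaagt
Ifitm2: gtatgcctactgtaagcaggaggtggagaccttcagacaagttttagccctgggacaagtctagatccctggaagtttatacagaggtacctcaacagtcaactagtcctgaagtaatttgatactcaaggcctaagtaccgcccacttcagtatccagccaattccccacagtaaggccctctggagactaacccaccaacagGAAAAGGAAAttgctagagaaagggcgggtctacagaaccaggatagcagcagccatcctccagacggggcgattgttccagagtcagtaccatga
Ifitm3: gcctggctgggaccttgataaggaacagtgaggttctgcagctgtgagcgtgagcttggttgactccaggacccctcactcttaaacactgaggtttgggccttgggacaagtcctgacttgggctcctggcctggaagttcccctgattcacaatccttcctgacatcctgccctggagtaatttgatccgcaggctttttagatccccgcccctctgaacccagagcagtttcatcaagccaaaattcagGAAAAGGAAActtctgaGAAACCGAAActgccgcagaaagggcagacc
Ifitm6: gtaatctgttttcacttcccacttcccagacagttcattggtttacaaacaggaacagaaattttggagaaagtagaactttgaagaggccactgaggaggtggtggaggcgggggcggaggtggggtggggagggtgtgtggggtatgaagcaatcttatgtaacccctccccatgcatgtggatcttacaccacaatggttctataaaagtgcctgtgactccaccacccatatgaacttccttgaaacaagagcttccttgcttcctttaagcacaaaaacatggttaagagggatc

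The Ifitm2 window holds 1 ISRE match, from 46 to 37 bases before the start. The Ifitm3 window holds 2, at bases 3 to 12 and 20 to 29 after the start, and the windows of Ifitm1 and Ifitm6 hold 0. Over all 32851 promoter windows of the same length, 1131 (3.44%) hold the ISRE letters. The GAS letters TTCNNNGAA, which read the same on both strands, are in 2726 windows (8.30%), among them Ifitm3, at bases 14 to 22 after the start and overlapping its second ISRE match, and Ifitm6, from 10 to 2 bases before the start. Of the interferon genes used below, 14 of 22 matched genes of a type I response list and 9 of 16 of an interferon gamma response list hold the ISRE letters in any of their windows. Counted the same way, 1079 of 27025 genes (3.99%) do. These are matches of letters, in 1 window for each of the Ifitm members, and starts other than RefSeq's were not searched. The windows of Ifitm1 and Ifitm6 lie wholly inside the gene spans given above, so the outermost annotated start of each was not searched. The windows of Ifitm2 and Ifitm3 include that start.

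The genes are close copies of each other in part. The longest run of bases shared by 2 transcripts was 69 between Ifitm2 and Ifitm3 and 64 between Ifitm1 and Ifitm3. In the last 300 bases, where 3′ tags fall, no pair shared more than 26 bases. Ifitm2 also overlaps the annotated gene Gm45717 on the same strand, so part of its reads may be uncounted, and the split between members is uncertain to that extent.

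The libraries held 7788 (Lcn2-ko) and 7974 (wt) barcodes with 40959725 and 42069099 UMIs, and 7240 and 7398 cells were kept. A UMI is 1 captured RNA molecule. The libraries shared 4 barcodes. Although the cells were sorted for CD45, the product of Ptprc, clusters with under 100 CPM of Ptprc held 23.3% of the cells in the Lcn2-ko library and 25.2% in the wt library. Their fibroblast or mesenchymal list (8 of 8 genes above 0) summed to 8669 CPM (Lcn2-ko) and 8525 CPM (wt) and their epithelial list (8 of 8) to 1097 CPM and 1096 CPM, and they are called Ptprc-low here. Lcn2 itself was read in both, with 604 UMIs in the library labelled Lcn2-ko and 662 in the wt library. Ptprc-low cells, which are not leukocytes by their genes, held 406 (Lcn2-ko) and 315 (wt) of these. In neutrophil-like cells Lcn2 was at 163 CPM (82 UMIs) in the Lcn2-ko library and 210 CPM (198 UMIs) in the wt library. Macrophage-like cells had 7.87 CPM (41 UMIs, Lcn2-ko) and 20.5 CPM (104 UMIs, wt), and monocyte-like cells 41.4 CPM and 45.5 CPM. These 3′ counts therefore do not check the genotype label, since the tags may lie outside the deleted part, and every direction below rests on the label as given.

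Cells were grouped into classes from lists of marker genes, without using the Ifitm genes, and the 12 classes that held 50 or more cells in both libraries were compared. Levels are a class's summed UMIs of a gene scaled to a total of 1000000 UMIs (CPM), with exact Poisson 95% intervals. Ratios are log2 of the Lcn2-ko level over the wt level with exact conditional binomial 95% intervals. With 1 library per genotype there was no replicate check and no test, so each interval covers counting error only, and the spread between mice is unknown. A difference of at least 1.5-fold (0.58 on the log2 scale) is called.

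Over all kept cells, Ifitm3 was at 538 CPM in the Lcn2-ko library and 476 CPM in the wt library. Ifitm2 was at 201 CPM (Lcn2-ko) and 174 CPM (wt), and Ifitm1 at 167 CPM (Lcn2-ko) and 129 CPM (wt). Ifitm6 was at 11.0 CPM (Lcn2-ko) and 10.8 CPM (wt). The genes differed mainly in which cells held them. Ptprc-low cells held 71.6% of all Ifitm3 UMIs in the Lcn2-ko library and 75.3% in the wt library, yet 3.69% and 3.12% of the Ifitm1 UMIs. They were deep cells and held many UMIs of all genes, 15812096 (Lcn2-ko) and 16774315 (wt), of 40959725 and 42069099 over all barcodes. Their Ifitm3 level was 945 CPM (Lcn2-ko) and 848 CPM (wt), against 538 CPM and 476 CPM over all kept cells.

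**Figure D1:**
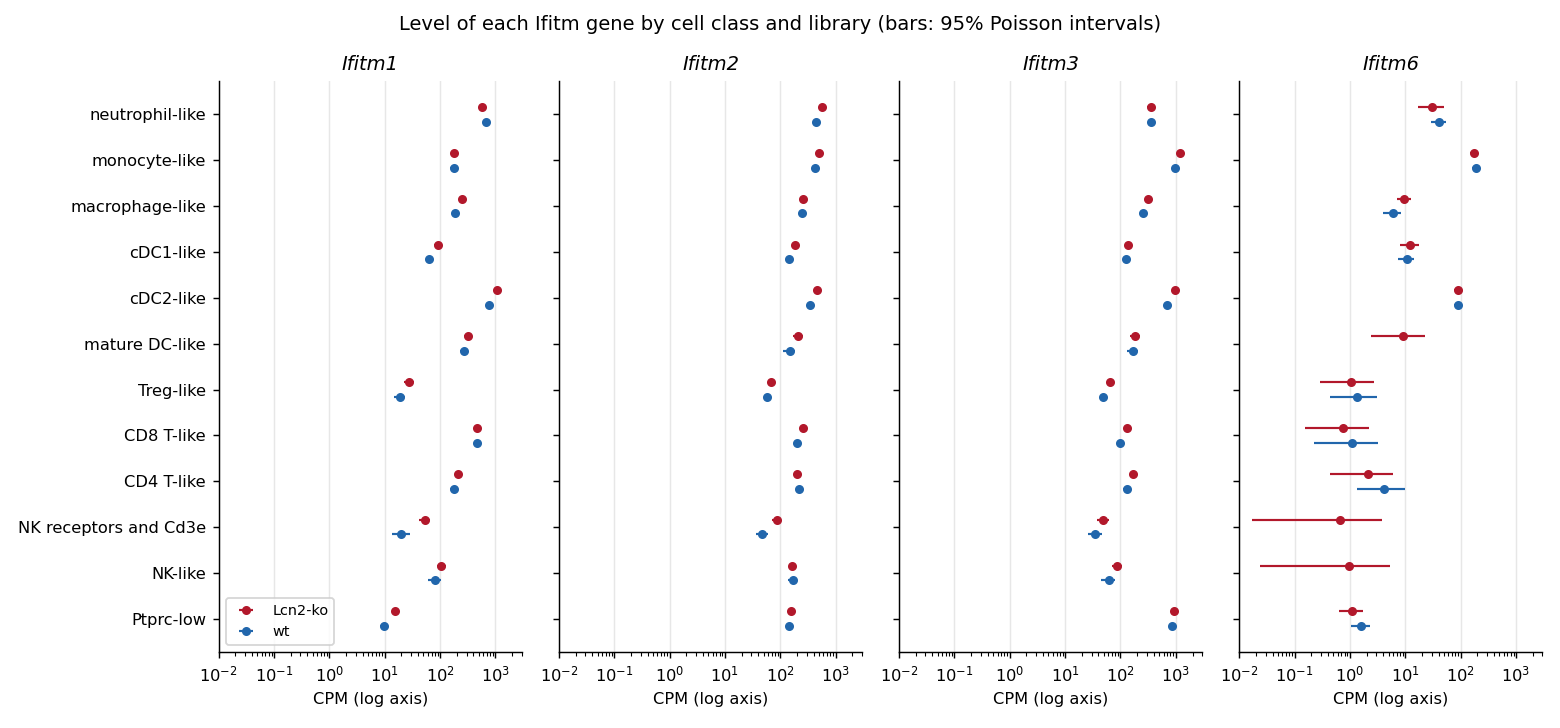
Level of each Ifitm gene in 12 cell classes, in CPM on a log axis, with 95% Poisson intervals (counting error only), Lcn2-ko above wt in each row. Classes where a library had 0 UMIs have no point for it. Ifitm3 was highest in monocyte-like, cDC2-like and Ptprc-low cells, Ifitm1 in cDC2-like cells, and Ifitm6 in monocyte-like cells, the same in both libraries.

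Ifitm3, the late endosomal member, was highest in monocyte-like cells, at 1194 CPM (1128 to 1263) in the Lcn2-ko library and 973 CPM (904 to 1045) in the wt library. cDC2-like cells, dendritic cells that present antigen to CD4 T cells, had 952 CPM (Lcn2-ko) and 684 CPM (wt). Ptprc-low cells had 945 CPM (Lcn2-ko) and 848 CPM (wt). In the Lcn2-ko library the intervals of these 2 overlapped, and in the wt library Ptprc-low cells were above cDC2-like cells. Neutrophil-like cells had 355 CPM (Lcn2-ko) and 353 CPM (wt), with overlapping intervals with macrophage-like cells (312 CPM) in the Lcn2-ko library. At the low end were Treg-like cells with 64.5 CPM (Lcn2-ko) and 49.1 CPM (wt) and cells with NK receptors and Cd3e, which carry both natural killer and T cell genes, with 49.0 CPM (Lcn2-ko) and 35.2 CPM (wt).

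Ifitm1, the cell surface member, had another order. cDC2-like cells led with 1080 CPM (1027 to 1136) in the Lcn2-ko library and 758 CPM (715 to 803) in the wt library. Neutrophil-like cells followed with 583 CPM (Lcn2-ko) and 670 CPM (wt), then CD8 T-like cells with 474 CPM (Lcn2-ko) and 459 CPM (wt). Mature DC-like cells, dendritic cells that carry antigen to lymph nodes, had 321 CPM (Lcn2-ko) and 272 CPM (wt). Macrophage-like cells had 246 CPM (Lcn2-ko) and 184 CPM (wt), CD4 T-like cells 214 CPM and 176 CPM, and monocyte-like cells 181 CPM and 178 CPM, and these 3 were not separable in the wt library. Below them came NK-like cells with 105 CPM (Lcn2-ko) and 80.2 CPM (wt) and cDC1-like cells, which cross-present antigen to CD8 T cells, with 90.4 CPM (Lcn2-ko) and 63.8 CPM (wt), again with overlapping intervals. Treg-like cells were at 27.5 CPM (Lcn2-ko) and 18.7 CPM (wt), far under CD8 T-like cells, so T cells were not alike in Ifitm1. Ptprc-low cells had the lowest level, 15.1 CPM (Lcn2-ko) and 9.54 CPM (wt), although their Ifitm3 was among the highest.

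Ifitm2, the second endosomal member, was highest in myeloid cells. It reached 565 CPM (Lcn2-ko) and 439 CPM (wt) in neutrophil-like cells and 492 CPM (Lcn2-ko) and 418 CPM (wt) in monocyte-like cells, with overlapping intervals in each library. cDC2-like cells had 466 CPM (Lcn2-ko) and 339 CPM (wt), and macrophage-like cells 257 CPM (Lcn2-ko) and 242 CPM (wt). CD8 T-like cells had 255 CPM (Lcn2-ko) and 201 CPM (wt). The lowest were Treg-like cells with 68.5 CPM (Lcn2-ko) and 57.6 CPM (wt) and cells with NK receptors and Cd3e, with 86.6 CPM (Lcn2-ko) and 47.2 CPM (wt). Mast-like cells, at 552 CPM (47 Lcn2-ko cells) and 452 CPM (69 wt cells), stood beside the myeloid classes but were too few in the Lcn2-ko library to be compared.

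Ifitm6 was the most restricted of the 4. Monocyte-like cells had 174 CPM (149 to 201) in the Lcn2-ko library and 189 CPM (159 to 222) in the wt library, and cDC2-like cells 90.3 CPM (Lcn2-ko) and 88.9 CPM (wt). Neutrophil-like cells had 29.7 CPM (15 UMIs) in the Lcn2-ko library and 40.3 CPM (38 UMIs) in the wt library. Together these classes held most Ifitm6 UMIs, monocyte-like cells alone 41.2% in the Lcn2-ko library and 33.9% in the wt library. NK-like cells and cells with NK receptors and Cd3e had 1 UMI each in the Lcn2-ko library and 0 in the wt library. CD8 T-like cells had 3 UMIs in each library, among 1167 and 881 cells.

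Shares of cells with a UMI gave the same picture at a depth that differs between classes. A UMI of Ifitm3 was read in 92.9% of monocyte-like cells (Lcn2-ko) and 88.4% (wt), at median depths of 3627.5 and 3624.5 UMIs per cell. Cells were then thinned to 800 UMIs each, and cells with fewer were left out. The thinned shares were 58.3% (Lcn2-ko) and 49.5% (wt). In neutrophil-like cells, the shallowest compared class with medians of 1219 (Lcn2-ko) and 1355 (wt) UMIs, Ifitm3 was in 31.4% and 34.7%, or 22.9% and 24.6% when thinned. Thinning kept 315 of 385 Lcn2-ko and 544 of 613 wt cells of this class, so the thinned values rest on fewer cells. No class is sure to lack Ifitm3. B-like cells, of like depth (medians of 1236 and 1137 UMIs), had a UMI in 4 of 39 cells (Lcn2-ko) and 2 of 51 cells (wt). Among the compared classes thinned to 800 UMIs, cells with NK receptors and Cd3e were lowest, at 4.32% (Lcn2-ko) and 2.74% (wt). Mast-like cells, too few to be compared, had 4.26% and 0%.

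For Ifitm1 the thinned shares were 44.0% (Lcn2-ko) and 28.0% (wt) in cDC2-like cells, 30.2% and 36.8% in neutrophil-like cells, and 23.1% and 21.3% in CD8 T-like cells. Treg-like cells were at 1.65% (Lcn2-ko) and 1.08% (wt), Ptprc-low cells at 1.46% and 0.564%, and cells with NK receptors and Cd3e at 2.97% and 0.998%. The level that free RNA gives was not measured. Ifitm6 was in 15.7% (Lcn2-ko) and 15.8% (wt) of thinned monocyte-like cells, against 0.0788% and 0.231% of Treg-like cells, which should lack it and whose thinned depth was the same.

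Single cells often held several members. At least 2 of the 4 genes had a UMI in 83.5% (Lcn2-ko) and 84.2% (wt) of monocyte-like cells, 83.5% and 83.7% of cDC2-like cells, and 69.6% and 63.1% of the deeper Ptprc-low cells. In neutrophil-like cells this held for 35.3% (Lcn2-ko) and 40.6% (wt), and in CD8 T-like cells for 35.7% (Lcn2-ko) and 27.1% (wt). In CD8 T-like cells the 10% of cells with most Ifitm1 held 57.7% of its UMIs in the Lcn2-ko library and 62.5% in the wt library.

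Between the libraries, Ifitm1 to Ifitm3 were mostly somewhat higher in the Lcn2-ko library, by less than 1.5-fold except in cells with NK receptors and Cd3e (Ifitm1 and Ifitm2) and, for Ifitm1 at a level under 20 CPM, in Ptprc-low cells. Ifitm3 was above 0 on the log2 scale in 12 of 12 classes, with a median of 0.33, and its interval lay above 0 in 7. Of 2961 genes that reached 20 CPM in either library in every class, 36 (1.22%) were higher in all 12. In neutrophil-like cells the Ifitm3 value was 0.01 (-0.26 to 0.27), but -0.02 after thinning, and it ran from -0.16 to 0.11 over the alternative processings. In mature DC-like cells it was 0.14 (-0.33 to 0.61) and became -0.55 when thinned, so the direction in these 2 classes depends on the processing. Ifitm1 was higher in 10 of 11 classes with at least 20 CPM, with a median of 0.39, and Ifitm2 in 10 of 12, with a median of 0.29. Ifitm6 reached 20 CPM in 3 classes, and its intervals spanned 0 in all of these. Below that level, in macrophage-like cells, Ifitm6 was at 9.60 CPM (50 UMIs) in the Lcn2-ko library and 5.91 CPM (30 UMIs) in the wt library. That log2 ratio was 0.70 (0.02 to 1.40).

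**Figure D2:**
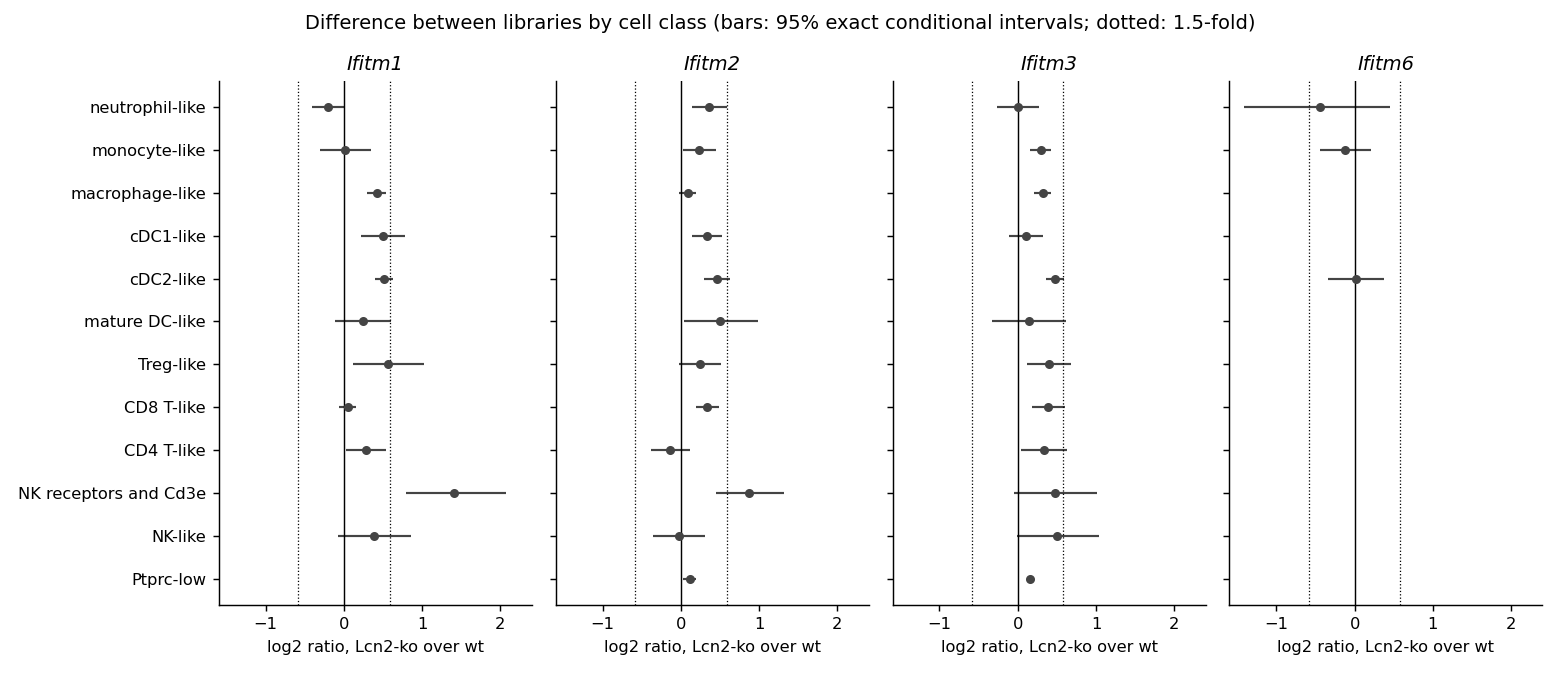
Log2 ratio of each Ifitm gene, Lcn2-ko over wt, by cell class, with exact conditional 95% intervals (counting error only), for classes with at least 20 CPM in either library. Dotted lines mark 1.5-fold. Most points of Ifitm1, Ifitm2 and Ifitm3 lie between 0 and the right dotted line, those of cells with NK receptors and Cd3e are farthest right for Ifitm1 and Ifitm2, and Ifitm1 in neutrophil-like cells lies left of 0.

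The 2 called differences were both in cells with NK receptors and Cd3e, where 1.29% of 3482 genes were called higher and 1.55% lower. Ifitm1 was at 53.0 CPM (79 UMIs, 42 of 372 cells) in the Lcn2-ko library and 19.9 CPM (30 UMIs, 19 of 404 cells) in the wt library, a log2 ratio of 1.41 (0.79 to 2.07). Ifitm2 was at 86.6 CPM (129 UMIs) in the Lcn2-ko library and 47.2 CPM (71 UMIs) in the wt library, a log2 ratio of 0.88 (0.45 to 1.31). Ifitm3 was at 49.0 CPM (Lcn2-ko) and 35.2 CPM (wt), 0.48 (-0.05 to 1.01). Both libraries were low for these genes here, and the class joins a pair of clusters. In the one led by Gzmc, Cd7 and Xcl1, Ifitm1 was at 85.1 CPM (47 UMIs) in 88 Lcn2-ko cells and 16.8 CPM (7 UMIs) in 72 wt cells. That log2 ratio, 2.34 (1.19 to 3.73), rests on few wt UMIs. In the other, led by Cd7, Klra7 and Klra6, Ifitm1 was at 34.1 CPM (32 UMIs) in 284 Lcn2-ko cells and 21.1 CPM (23 UMIs) in 332 wt cells. The interval of that ratio (-0.13 to 1.53) spanned 0. The summed T cell list (10 of 10 genes above 0) was at 4733 CPM (Lcn2-ko) and 4864 CPM (wt), and the summed NK cell list (10 of 10) at 3085 CPM and 2892 CPM. The Ifitm1 ratio was 0.86 as a mean over cells.

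cDC2-like cells were higher in the Lcn2-ko library for 3 members at once. Ifitm1 had a log2 ratio of 0.51 (0.40 to 0.62), Ifitm2 of 0.46 (0.29 to 0.63) and Ifitm3 of 0.48 (0.36 to 0.60), while Ifitm6 had 0.02 (-0.34 to 0.38). None was called, where 2.67% of 3227 genes were called higher and 2.32% lower. Within these cells, Ifitm3 was at 1478 CPM (Lcn2-ko) and 1166 CPM (wt) in a sub-cluster led by Cd7 and Ly6c2 (56 and 35 cells). It was at 1346 CPM (Lcn2-ko) and 1070 CPM (wt) in one led by the interferon-induced genes Ifit3 and Rsad2 (37 and 30 cells). Ifitm1 was at 943 CPM (Lcn2-ko) and 344 CPM (wt) in a sub-cluster with Itgae and Wdfy4 (42 and 40 cells), but at 1373 CPM (Lcn2-ko) and 1285 CPM (wt) in the interferon-induced one, so its difference was uneven. A sub-cluster led by the heat-shock genes Dnajb1 and Hspa1a held 3 Lcn2-ko and 29 wt cells, with 528 CPM of Ifitm1 in the wt library. With sub-clusters given the same weight in both libraries the class ratios were 0.49 for Ifitm1, 0.36 for Ifitm2 and 0.37 for Ifitm3. A sub-cluster of 13 Lcn2-ko and 4 wt cells with the plasmacytoid genes Siglech and Ccr9 had 0 Ifitm1 UMIs. The monocyte list summed to 1970 CPM (7 of 8 genes above 0) in the Lcn2-ko library and 1159 CPM (8 of 8) in the wt library, and the T cell list to 359 CPM and 232 CPM (10 of 10 in each). Their part in the result was not tested.

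Monocyte-like cells had Ifitm3 ratios of 0.30 (0.16 to 0.43) and Ifitm2 ratios of 0.24 (0.03 to 0.44), and neither was called, with 3.26% of 3161 genes called higher and 4.94% lower. Ifitm6 was at -0.12 (-0.44 to 0.21). These cells fell into sub-clusters that differed far more than the libraries did. One led by F5, Hp and Adgre4 held Ifitm6 at 520 CPM (112 UMIs, 71 cells) in the Lcn2-ko library and 535 CPM (84 UMIs, 50 cells) in the wt library. Ifitm3 there was at 1772 CPM (Lcn2-ko) and 1529 CPM (wt), and Ifitm1 at 32.5 CPM and 25.5 CPM. In a sub-cluster led by Sdc1, Inhba and Gpnmb, Ifitm6 was at 62.3 CPM (Lcn2-ko) and 85.3 CPM (wt), and Ifitm1 at 171 CPM and 126 CPM. The sub-cluster highest in Ifitm6 was thus the lowest in Ifitm1 in both libraries. A sub-cluster with T cell genes (Cd3g, Thy1) and S100a8 had 326 CPM (Lcn2-ko) and 312 CPM (wt) of Ifitm1, and without it the class ratio of Ifitm1 was 0.27, against 0.02 (-0.31 to 0.35) with it.

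Where single monocytes were instead gated by their own marker UMIs, 60 Lcn2-ko and 55 wt cells remained, and Ifitm6 was at 381 CPM (Lcn2-ko) and 463 CPM (wt). Ifitm3 was at 1617 CPM (Lcn2-ko) and 1505 CPM (wt), a ratio of 0.10 (-0.13 to 0.34). Ifitm1 was at 74.2 CPM (15 UMIs) in the Lcn2-ko library and 39.0 CPM (7 UMIs) in the wt library.

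**Figure D3:**
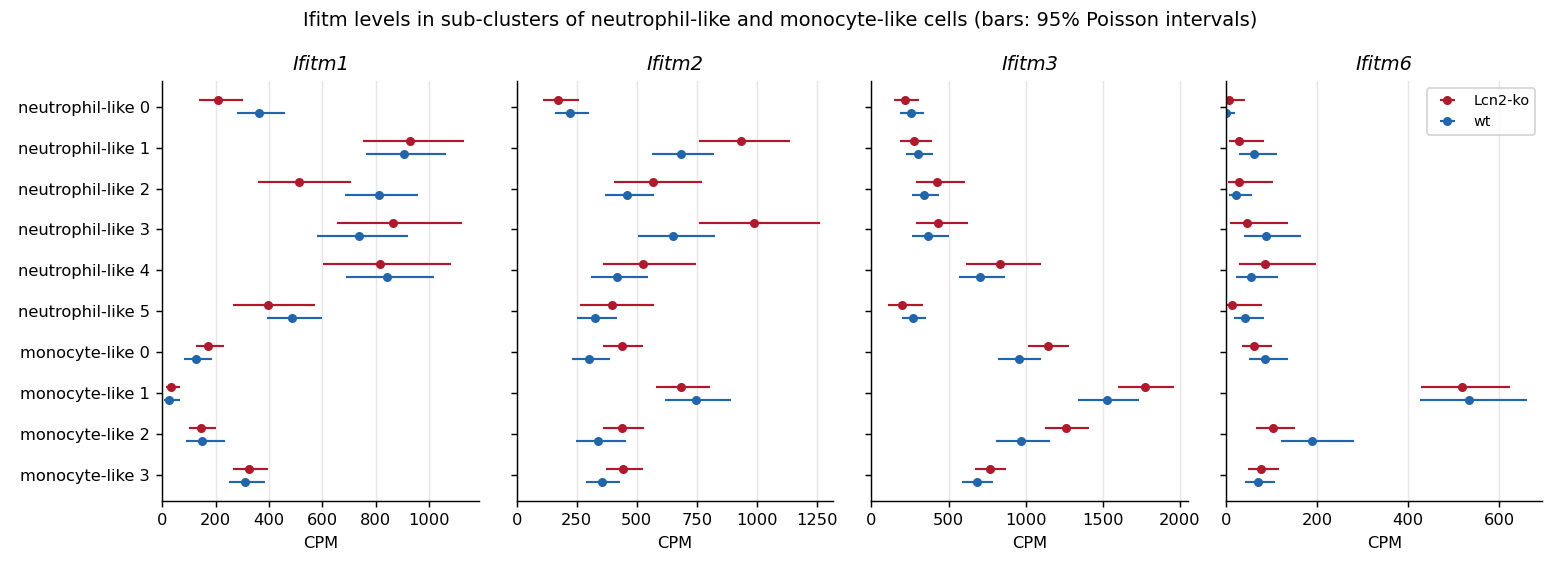
Level of each Ifitm gene in sub-clusters of neutrophil-like and monocyte-like cells, in CPM on a linear axis that differs between panels, with 95% Poisson intervals (counting error only), Lcn2-ko above wt. Neutrophil-like 0 is led by Atp6v0d2 and Gpnmb, 1 by Ffar2 and Il23a, 2 by P2rx7, 3 by Wfdc21 and Hp, 4 by Cmpk2 and Ifit1, and 5 holds T cell genes; monocyte-like 0 is led by Sdc1 and Inhba, 1 by F5 and Hp, 2 by Aif1 and Gbp2, and 3 holds T cell genes. Ifitm6 reaches 520 and 535 CPM in monocyte-like 1, and Ifitm1 is lowest there.

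Macrophage-like cells had Ifitm1 at 0.42 (0.30 to 0.54) and Ifitm3 at 0.32 (0.21 to 0.42), with 0.549% of 3278 genes called higher and 1.65% lower and neither of these called. Ifitm2 was at 0.09 (-0.03 to 0.20). The libraries filled the sub-clusters of this class unequally, for example with 124 Lcn2-ko and 40 wt cells in one led by Il2ra and Retnla and 70 and 117 cells in one led by Retnlg and S100a8. With the sub-clusters given the same weight in both libraries the ratios were 0.57 for Ifitm1 and 0.32 for Ifitm3. The Ifitm1 difference was uneven among sub-clusters. It was at 547 CPM (Lcn2-ko) and 189 CPM (wt) in cells with the chemokine genes Ccl17 and Ccl22 (51 and 75 cells), a log2 ratio of 1.54 (1.22 to 1.86), and at 582 CPM (94 UMIs) and 144 CPM (22 UMIs) in cells that also held T cell genes such as Gzma (37 and 41 cells). In the sub-cluster led by Selenop, Ccl8 and Vcam1 (114 and 100 cells) it was at 75.5 CPM (Lcn2-ko) and 78.3 CPM (wt). The Ccl17 sub-cluster had 42.9% of each of the dendritic cell, cDC2 and mature DC lists raised at least 1.5-fold over the rest of the class. Its macrophage list summed to 4152 CPM over both libraries, against 12352 CPM in the Selenop one. The part of these dendritic cell genes was not tested. Gating single cells left 49 Lcn2-ko and 42 wt macrophages, too few in each library to be compared by the limit used for classes, with 165 CPM (36 UMIs) and 46.9 CPM (9 UMIs) of Ifitm1. The top Lcn2-ko cell held 21 of the 36 UMIs, and 7 cells in each library had any. In the whole class the T cell list summed to 1190 CPM (Lcn2-ko) and 1006 CPM (wt), and the neutrophil list to 2161 CPM and 2920 CPM, with every gene of both above 0. Their part in the result was not tested.

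In neutrophil-like cells, the cell type the series set out to study, the members went different ways. Ifitm1 was at 583 CPM (294 UMIs, 39.5% of 385 cells) in the Lcn2-ko library and 670 CPM (631 UMIs, 48.8% of 613 cells) in the wt library. Its log2 ratio was -0.20 (-0.40 to 0.00), the only negative one among the classes compared for this gene, and it lay between -0.32 and -0.05 over the alternative processings. Ifitm2 was at 565 CPM (285 UMIs) in the Lcn2-ko library and 439 CPM (414 UMIs) in the wt library, 0.36 (0.14 to 0.58). Ifitm3 was at 355 CPM (179 UMIs) and 353 CPM (333 UMIs), 0.01 (-0.26 to 0.27), and Ifitm6 at 29.7 CPM and 40.3 CPM, -0.44 (-1.41 to 0.46). No member was called, where 6.25% of 2530 genes were called higher and 4.82% lower. The 2530 genes reached 50 CPM in one of the libraries, which Ifitm6 did not.

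Neutrophil-like cells were split again into 6 sub-clusters. Those led by Atp6v0d2, Gpnmb and Inhba, a tumour-adapted state, had the least Ifitm1 with 209 CPM (28 UMIs, 107 cells) in the Lcn2-ko library and 362 CPM (67 UMIs, 131 cells) in the wt library, and the least Ifitm2 with 172 CPM and 222 CPM. Ifitm1 was at 865 CPM (Lcn2-ko) and 736 CPM (wt) in the S100a8-high sub-cluster led by Wfdc21, Mmp8 and Hp (51 and 73 cells). It was at 927 CPM (Lcn2-ko) and 904 CPM (wt) in the one led by Ffar2, Il23a and Icam1 (86 and 126 cells). Ifitm3 was highest in the interferon-stimulated sub-cluster led by Cmpk2, Cxcl10 and Ifit1 (43 and 73 cells), at 832 CPM (Lcn2-ko) and 704 CPM (wt), against 216 CPM (Lcn2-ko) and 254 CPM (wt) in the tumour-adapted one. Ifitm1 in the interferon-stimulated cells, at 815 CPM (Lcn2-ko) and 840 CPM (wt), was close to its level in the S100a8-high cells. Ifitm3 was thus highest in the interferon-stimulated cells in both libraries, and Ifitm1 and Ifitm2 were lowest in the tumour-adapted cells in both.

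The interval of the Ifitm1 ratio lay below 0 in 2 of these sub-clusters. It was -0.79 (-1.49 to -0.14) in the tumour-adapted one and -0.67 (-1.24 to -0.13) in the one led by P2rx7 and Efr3b, with 511 CPM (36 UMIs, 67 cells) in the Lcn2-ko library and 813 CPM (143 UMIs, 142 cells) in the wt library. Ifitm2 was above 0 in 5 of 6 sub-clusters and highest, at 0.61 (0.09 to 1.12), in the S100a8-high one, with 988 CPM (Lcn2-ko) and 649 CPM (wt). Across the class, the tumour-adapted list summed to 2226 CPM (Lcn2-ko) and 1684 CPM (wt), and the interferon-stimulated list to 4139 CPM and 5035 CPM, 8 of 8 genes above 0 in each. With the sub-clusters given the same weight in both libraries the Ifitm1 ratio was -0.21, about as in the class sum. Genes of other cells moved too: the T cell list was at 398 CPM (Lcn2-ko) and 516 CPM (wt), 10 of 10 genes above 0, and the dendritic cell list at 1388 CPM and 1800 CPM (7 of 7). Without the sub-cluster that held T cell genes the Ifitm1 ratio was -0.22.

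CD8 T-like cells had Ifitm2 at 0.34 (0.19 to 0.49) and Ifitm3 at 0.39 (0.18 to 0.61), with 0.681% of 3525 genes called higher and 1.25% lower and neither of these called, while Ifitm1 was at 0.05 (-0.06 to 0.15). Ifitm1 varied more within the class than between the libraries, although no Ifitm gene was used to place a cell. Cells led by Itgae, Gzma and Cdh1, genes of tissue-resident and cytotoxic T cells, had 969 CPM (734 UMIs, 272 cells) in the Lcn2-ko library and 824 CPM (393 UMIs, 180 cells) in the wt library. Cells led by Nrn1, Lag3 and Tox, genes of exhausted T cells, had 216 CPM (292 UMIs, 373 cells) in the Lcn2-ko library and 111 CPM (79 UMIs, 214 cells) in the wt library, a log2 ratio of 0.96 (0.60 to 1.34). Ifitm2 in the same Tox cells was at 157 CPM (Lcn2-ko) and 88.3 CPM (wt). Cells led by S1pr1, Lef1 and Tcf7, genes of naive and memory T cells, had 583 CPM (Lcn2-ko) and 644 CPM (wt) of Ifitm1. With the sub-clusters given the same weight in both libraries the Ifitm1 ratio of the class was 0.18.

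CD4 T-like cells joined a pair of clusters in which Ifitm1 differed in opposite directions. In the cluster led by Ccl1, Tnfsf11 and Penk it was at 191 CPM (185 UMIs, 285 cells) in the Lcn2-ko library and 97.6 CPM (76 UMIs, 229 cells) in the wt library, a ratio of 0.97 (0.58 to 1.38). In the cluster with the interleukin-17 genes Il17a and Il17f it was at 260 CPM (122 UMIs, 198 cells) and 320 CPM (135 UMIs, 187 cells), -0.30 (-0.67 to 0.06). That cluster had 100% of the CD4 T cell list raised. Its leading genes also included Trdc and Trgc1, of the gamma-delta T cell receptor, so it may hold T cells other than CD4 T cells. The difference between the clusters was not tested. For the whole class, Ifitm1 was at 0.28 (0.02 to 0.54), Ifitm2 at -0.13 (-0.38 to 0.11) and Ifitm3 at 0.34 (0.04 to 0.63), with none called, where 1.7% of 3645 genes were called higher and 2.11% lower. Single cells gated as CD4 T cells numbered 413 (Lcn2-ko) and 395 (wt). In these Ifitm1 was at 0.67 (0.37 to 0.97), Ifitm2 at 0.33 (0.06 to 0.61) and Ifitm3 at 0.48 (0.16 to 0.79).

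In Ptprc-low cells, which are not leukocytes by their genes, Ifitm3 rested on 14944 UMIs (Lcn2-ko) and 14218 UMIs (wt), and its log2 ratio was 0.16 (0.12 to 0.19). Ifitm2 was at 154 CPM (Lcn2-ko) and 143 CPM (wt), 0.11 (0.03 to 0.19), and 0.461% of 3684 genes were called higher and 0.489% lower here. Ifitm3 was even across the larger clusters of this class, at 935 CPM (Lcn2-ko) and 851 CPM (wt) in the collagen-rich one and 968 CPM and 858 CPM in the cycling one. Ifitm1, at 15.1 CPM (239 UMIs) in the Lcn2-ko library and 9.54 CPM (160 UMIs) in the wt library, had a log2 ratio of 0.66 (0.37 to 0.96), with its interval above 0. It was not called, as its level was below the 20 CPM from which ratios of the members were counted. The T cell list, at 181 CPM (Lcn2-ko) and 117 CPM (wt) with 10 of 10 genes above 0 in cells without T cell identity, was higher in the same library, and its part in these Ifitm1 counts was not tested.

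In Treg-like cells, Ifitm3 was at 0.39 (0.11 to 0.68), Ifitm1 at 0.56 (0.11 to 1.02) from 105 and 70 UMIs, and Ifitm2 at 0.25 (-0.02 to 0.52), and none was called, where 0.11% of 3638 genes were called higher and 0.55% lower. The 3638 genes reached 50 CPM in one of the libraries, which Ifitm1 did not. cDC1-like cells had Ifitm1 at 0.50 (0.22 to 0.78), Ifitm2 at 0.33 (0.14 to 0.52) and Ifitm3 at 0.11 (-0.11 to 0.33), with none called, where 0.375% of 3196 genes were called higher and 1.6% lower. Thinned to 800 UMIs, the first 2 were 1.12 and 1.00, on few UMIs. NK-like cells had intervals that spanned 0 for all 3, with Ifitm3 at 0.51 (-0.01 to 1.04), and none was called, where 2.26% of 3587 genes were called higher and 3.04% lower. In mature DC-like cells only Ifitm2, at 0.51 (0.03 to 0.98), had an interval above 0, and thinning turned it to -0.39. None was called there, where 4.99% of 2704 genes were called higher and 5.88% lower.

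A small cluster led by Il4, Il6, Mcpt8 and Gata2, left unnamed and not compared because it held 34 Lcn2-ko and 20 wt cells, had the highest Ifitm1 level of the 15 classes, 1543 CPM (77 UMIs, 22 cells) in the Lcn2-ko library and 1376 CPM (32 UMIs, 7 cells) in the wt library. Mcpt8 encodes a protease of mouse basophils. Ifitm6 had 0 UMIs there, in mast-like and in B-like cells. At the floor of 3 UMIs, a count of 0 in the unnamed cluster stands for 60.1 CPM in the Lcn2-ko library and 129 CPM in the wt library. Its upper Poisson limits were 73.9 CPM (Lcn2-ko) and 159 CPM (wt). Those of mast-like cells were 12.7 CPM and 9.05 CPM, and those of B-like cells 63.1 CPM and 49.8 CPM.

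Other interferon-induced genes were described by 2 lists. Genes that reached 20 CPM in the Lcn2-ko or the wt library were counted. In neutrophil-like cells, 1 of 25 type I response genes was called higher and 4 lower, against 12.2% and 9.32% of 4548 genes, and the list's median ratio was -0.17, against 0.02 over all genes. The most abundant, Rsad2, the antiviral enzyme viperin, was at 1960 CPM (Lcn2-ko) and 2770 CPM (wt). The lowest by ratio was Irf7, a factor that drives interferon genes, at 17.8 CPM (Lcn2-ko) and 79.6 CPM (wt), and the highest was Xaf1, at 63.4 CPM and 41.4 CPM. Of 18 interferon gamma response genes, 6 were called higher and 1 lower, with a median of 0.36. The most abundant, Cd274, which encodes the checkpoint ligand PD-L1, was at 1748 CPM (Lcn2-ko) and 1760 CPM (wt). The highest was Gbp5, a GTPase that acts against intracellular pathogens, at 61.4 CPM (Lcn2-ko) and 21.2 CPM (wt), and the lowest the chemokine Cxcl9, at 13.9 CPM and 26.5 CPM. Beside these, Ifitm3 stood at 0.01 and Ifitm1 at -0.20.

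In macrophage-like cells 0 of 22 type I genes were called higher and 5 lower (0.698% and 1.91% of 6017 genes), with a median of -0.24 and Isg15 at 132 CPM (Lcn2-ko) and 344 CPM (wt), whereas Ifitm3 was at 0.32. Of 20 interferon gamma genes, 0 were called higher and 2 lower. In monocyte-like cells 6 of 21 interferon gamma genes were called higher and 0 lower (6.3% and 9.36% of 5523 genes), with a median of 0.29, and Cxcl10 at 1234 CPM (Lcn2-ko) and 822 CPM (wt). Type I genes there had a median of 0.07. Type I genes were called in both directions in that class, 1 higher and 2 lower of 26.

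In cDC2-like cells, 2 of 23 type I genes were called higher and 2 lower (5.46% and 4.66% of 5862 genes), with the antiviral gene Ifit1 lowest at 17.8 CPM (Lcn2-ko) and 47.4 CPM (wt), and the nucleic acid sensor Zbp1 highest at 61.8 CPM and 40.2 CPM. Of 20 interferon gamma genes there, 4 were called higher and 0 lower, with a median of 0.27 and Igtp, a GTPase of the interferon gamma response, highest at 29.9 CPM (Lcn2-ko) and 15.6 CPM (wt). In cDC1-like cells, 1 of 11 type I genes was called higher and 1 lower (1.21% and 3.37% of 5788 genes), Zbp1 at 29.2 CPM (Lcn2-ko) and 15.8 CPM (wt) and Isg15 at 20.9 CPM and 33.0 CPM. Of 15 interferon gamma genes, 2 were called higher and 0 lower. In mature DC-like cells, 3 of 19 type I genes were called higher and 2 lower, and 5 of 19 interferon gamma genes higher and 0 lower (13.5% and 14.8% of 5843 genes). Ifit3 was there at 38.1 CPM (Lcn2-ko) and 8.91 CPM (wt), and Isg15 at 114 CPM and 243 CPM.

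In Treg-like cells 1 of 16 type I genes was called higher, Ifit1, and 1 lower, Isg15 (0.591% and 1.45% of 6261 genes), and 0 of 19 interferon gamma genes were called. In CD4 T-like cells 0 of 11 type I genes were called higher and 1, Stat2, lower (4.3% and 4.8% of 6397 genes), and 0 of 15 interferon gamma genes were called. In cells with NK receptors and Cd3e, where Ifitm1 and Ifitm2 were called, 0 of 12 type I genes were called higher and 1 lower, Zbp1 at 23.5 CPM (Lcn2-ko) and 46.5 CPM (wt). Of 16 interferon gamma genes there, 2 were called higher, Cxcl10 and Igtp (3.68% and 3.93% of 6330 genes higher and lower), and the list medians were -0.02 and -0.00. In NK-like cells 0 of 9 type I genes were called higher and 2 lower, and 4 of 19 interferon gamma genes higher and 1 lower (5.5% and 6.88% of 6304 genes).

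Ptprc-low cells had all 20 measured interferon gamma genes above 0, with a median of 0.40, and 4 called higher and 0 lower (0.49% and 0.594% of 6739 genes), where 39.7% of all genes were above 0. The highest was Cxcl9, at 320 CPM (Lcn2-ko) and 155 CPM (wt), and the lowest Psmb8, a subunit of the immunoproteasome, at 573 CPM and 521 CPM. The type I median was 0.14, near the Ifitm3 ratio of 0.16. In CD8 T-like cells both medians were below 0, at -0.23 for the type I list and -0.19 for the interferon gamma list. Of 18 type I genes, 0 were called higher and 3 lower, where 1.29% and 2.33% of 6299 genes were. These were Ifit3, at 33.1 CPM (Lcn2-ko) and 57.7 CPM (wt), Isg15, at 29.1 CPM and 49.8 CPM, and Oas3, at 17.3 CPM and 26.7 CPM. Of 17 interferon gamma genes, 1 was called higher and 0 lower. That gene was Cxcl10, at 78.0 CPM (Lcn2-ko) and 41.1 CPM (wt), while Socs1, an inhibitor of the interferon signal, was lowest at 67.4 CPM and 100 CPM. Ifitm2 and Ifitm3 were above 0 there.

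**Figure D4:**
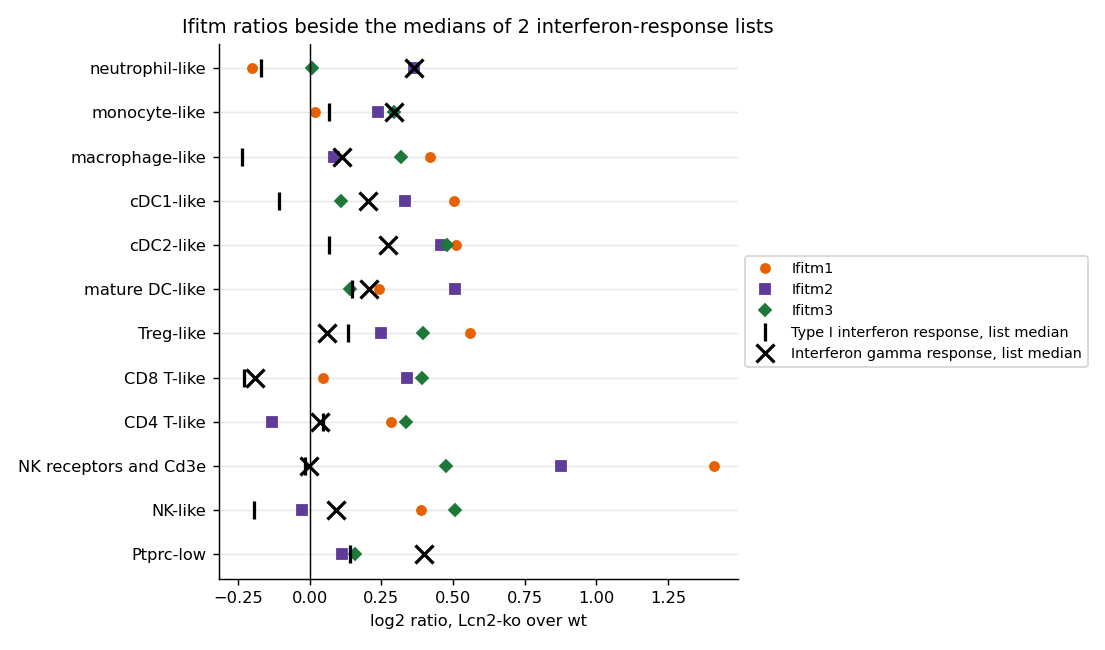
Log2 ratio, Lcn2-ko over wt, of Ifitm1, Ifitm2 and Ifitm3 in each cell class (coloured points) beside the median ratio of the measured genes of a type I interferon response list (bars) and an interferon gamma response list (crosses), with no error drawn. In neutrophil-like cells the medians are -0.17 and 0.36, and in CD8 T-like cells both medians are below 0 while the Ifitm points are above it.

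Genes that receive and carry the interferon signal formed another list. Of the receptor and transducer list (among them Ifnar1, Ifnar2, Ifngr1 and Ifngr2), 0 of 9 were called in neutrophil-like cells, with a median of -0.02, where 12.2% of all genes were called higher and 9.32% lower. In macrophage-like cells it was 0 of 10 (0.698% and 1.91% of all genes), with a median of -0.04. In monocyte-like cells 1 of 10 was called higher (6.3% of all genes), Stat2, at 118 CPM (Lcn2-ko) and 78.0 CPM (wt), and in mature DC-like cells 1 of 10 (13.5% of all genes), Tyk2, at 76.3 CPM (34 UMIs) and 49.0 CPM (22 UMIs). In CD4 T-like cells 2 of 10 were called lower (4.8% of all genes), Tyk2 at 22.3 CPM (Lcn2-ko) and 34.1 CPM (wt) and Stat2 at 27.8 CPM and 42.5 CPM. In the other 7 classes 0 were called.

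Of the partners and enzymes that act on Ifitm proteins, 3 of 7 were called higher and 0 lower in neutrophil-like cells, where 12.2% of all genes were called higher and 9.32% lower, and these calls rest on few UMIs. Vcp, a segregase that pulls ubiquitinated proteins from membranes, was at 47.6 CPM (24 UMIs) in the Lcn2-ko library and 13.8 CPM (13 UMIs) in the wt library. Nedd4, a ubiquitin ligase for IFITM3 in human cells, was at 27.8 CPM (14 UMIs) and 15.9 CPM (15 UMIs), and Zdhhc20, a palmitoyltransferase for IFITM3 in human cells, at 101 CPM (51 UMIs) and 58.4 CPM (55 UMIs). The most abundant, the tetraspanin Cd9, was at 1752 CPM (Lcn2-ko) and 1698 CPM (wt). In other classes the list had 1 gene called higher, Setd7 in monocyte-like cells (1 of 8, 6.3% of all genes), at 34.5 CPM (35 UMIs) in the Lcn2-ko library and 19.5 CPM (15 UMIs) in the wt library. It had 2 called lower, Zdhhc20 in mature DC-like cells (1 of 7, 14.8% of all genes), at 20.2 CPM (9 UMIs) and 40.1 CPM (18 UMIs), and Nedd4 in NK-like cells (1 of 7, 6.88% of all genes), at 117 CPM and 177 CPM. Among other genes that restrict viral entry or budding, Bst2, which tethers budding virus, was the 1 of 6 called higher in cDC2-like cells (5.46% of all genes), at 112 CPM (Lcn2-ko) and 74.0 CPM (wt). In macrophage-like cells 2 of 7 were called lower (1.91% of all genes), Ch25h, whose product hydroxylates cholesterol, at 27.7 CPM (Lcn2-ko) and 46.3 CPM (wt), and Rsad2, at 225 CPM and 351 CPM. Rsad2 was called higher in Ptprc-low cells (1 of 7, 0.49% of all genes), at 151 CPM (Lcn2-ko) and 96.8 CPM (wt), and the ubiquitin ligase gene Trim25 in CD4 T-like cells (1 of 6, 4.3% of all genes), at 50.1 CPM and 30.0 CPM. Ly6e, the most abundant of them in Ptprc-low cells, was at 1179 CPM (Lcn2-ko) and 1068 CPM (wt) there.

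The genes most like each member were found by Pearson correlation of log2(CPM + 10) over 24 sums, 12 classes in 2 libraries, among 6265 genes. The sums share libraries and depth, so these values are descriptions. Ifitm1 and Ifitm2 were among each other's 5 most alike, at 0.79, and Ifitm1 was as much like Pygl (0.79), which encodes liver glycogen phosphorylase. Ifitm2 was most like Smim3 (0.85) and Gch1 (0.81), an enzyme of tetrahydrobiopterin synthesis. Ifitm3 was most like Rnh1 (0.90), an inhibitor of ribonucleases, and Lgals3 (0.89), galectin-3, and no other member was among its 5. Ifitm6 was most like Krt80 (0.90) and Gm9733 (0.90), then Gpr141, Ly6i and Adora2b. The lowest likeness between members was 0.32, between Ifitm1 and Ifitm3. With Spearman correlation 4 of the 5 genes remained for Ifitm1 and for Ifitm3, 3 for Ifitm2 and 0 for Ifitm6, whose level was near 0 in most classes.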

How the data were processed

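Single-cell RNA was captured on the BD Rhapsody system from 2 libraries, and UMI counts per gene and barcode, unnormalised, were deposited by the authors. Cell Ranger and the mm10 build are named in the submitters' processing notes, without their roles, and what else was done is not given in the sources used here. Barcodes were kept from 200 genes up and with mitochondrial UMIs of 20% or less, and the 4% with the highest Scrublet scores in each library were left out as doublets, since the automatic threshold called 1 in each library. Counts were scaled to each cell's total and log transformed, and 2000 variable genes (without Ifitm genes, Lcn2, Y-linked, mitochondrial, ribosomal and receptor genes), 30 components and 15 neighbours were used for Leiden clustering at resolution 1 with scanpy 1.11.5 and leidenalg 0.10.2. The 23 clusters were named from marker lists, giving 15 classes. Classes were split again for sub-clusters at resolution 0.6. Neither cells nor barcodes are replicates, so UMIs were summed per class and library, scaled to CPM, and given with 95% Poisson, Clopper-Pearson (shares) or conditional binomial (ratios) intervals from SciPy 1.17.1, with a count of 0 set at a floor of 3 UMIs. A gene was called at 1.5-fold where it reached 50 CPM in one of the libraries and 50 UMIs in their sum, or, within lists, 20 CPM in one of them. Ratios of the members were counted from 20 CPM. The shares of called genes given beside the members in each class are of genes at 50 CPM and 50 UMIs. Some members did not reach that limit, such as Ifitm1 in Treg-like cells and Ifitm6 in neutrophil-like cells. Intervals cover counting error only, and free RNA was not removed. The ratio and its interval were tested on simulated sums of the neutrophil-like and macrophage-like classes, drawn with counting error only. The other steps were not simulated.

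The genes to be named were the 4 members in every class, the 5 genes most like each, and from each list its most abundant, highest and lowest gene. Not all of these are given here. Isg15 in macrophage-like cells was also its list's lowest, and other genes, including those under partners and receptors, were picked after their values were seen. The members and lists were chosen with earlier results of these data known. Promoter sequences are from RefSeq (GRCm38.p6), and all 4 members matched. Alternatives covered the filters, doublets, resolution, gates on single cells, thinning to 800 UMIs (without cells that had fewer), another total, centring, and means over cells.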

Additional observations from a re-analysis of the deposited data

How the results depend on the processing

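Of 395 values of 38 log2 ratios (Lcn2-ko over wt) under other processing, 359 stayed inside the counting interval of the ratio as reported and 36 left it. Only 2 of the ratios were called, Ifitm1 and Ifitm2 in cells with NK receptors and Cd3e, and neither changed sign. Some uncalled ratios did, and not all are listed here. Ifitm3 in neutrophil-like cells kept its sign in 6 of 12 alternatives, and Ifitm2 in NK-like cells in 7 of 10. Ifitm1 in monocyte-like cells kept it in 8 of 10 (-0.23 to 0.93), and Ifitm2 in CD4 T-like cells in 9 of 10 (-0.35 to 0.33). Other results moved more often: 204 of 790 levels, 108 of 146 shares of cells, 41 of 70 gene counts and 5 of 8 likeness lists. The causes were not tested. Thinning to 800 UMIs gave, for Ifitm1, 0.20 in macrophage-like, 1.12 in cDC1-like and 0.83 in cDC2-like cells. For Ifitm2 it gave 0.37 in macrophage-like, 1.00 in cDC1-like, 0.12 in cDC2-like, -0.39 in mature DC-like and 0.39 in NK-like cells and 2.16 in cells with NK receptors and Cd3e. For Ifitm3 it gave 0.53 in macrophage-like, 0.70 in cDC2-like, -0.55 in mature DC-like and 1.12 in NK-like cells. Gating single cells gave 0.93, 0.031 and 0.10 for Ifitm1, Ifitm2 and Ifitm3 in monocytes, 1.82 and 0.32 for Ifitm1 and Ifitm2 in macrophages, 0.39 and 0.35 for Ifitm1 and Ifitm3 in cDC2, and 0.72 for Ifitm3 in mature DC. It gave 0.58 for Ifitm2 in CD8 T cells, 0.67 and 0.33 for Ifitm1 and Ifitm2 in CD4 T cells, and 0.26 for Ifitm2 in Ptprc-low cells. The gated macrophage value of 1.82 rested on 36 (Lcn2-ko) and 9 (wt) UMIs, with 21 of the 36 in the top cell. Resolution 2 gave 0.22 and 0.23 for Ifitm1 and Ifitm2 in macrophage-like cells and 0.17 for Ifitm2 in cDC2-like cells. Centring gave 0.47 and 0.65 for Ifitm1 in monocyte-like and cDC2-like cells. A 10% mitochondrial limit gave, for Ifitm1, 0.68 in monocyte-like, -0.082 in CD8 T-like and 0.66 in CD4 T-like cells, and 0.60 for Ifitm2 in CD8 T-like cells. Weighting sub-clusters equally, chosen after seeing the data, gave 0.18 for Ifitm1 in CD8 T-like and 0.57 in macrophage-like cells.

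In neutrophil-like cells Ifitm1 stayed below 0 in 12 of 12 alternatives, and Ifitm3 ran from -0.16 to 0.11. Ifitm1 in cells with NK receptors and Cd3e ran from 0.86 to 1.92. The number of genes called in neutrophil-like cells, 158 higher and 122 lower, fell to 42 and 36 at 100 CPM, and to 82 higher when thinned. No paired analysis was possible because there was 1 library per genotype, and for the same reason no library could be left out. Monocyte-like cells formed no class of their own without doublet removal or with at least 500 genes per cell. Few UMIs limit the Ifitm6 ratio in neutrophil-like cells, the shallowest class compared.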
